A study of Mus musculus with 21 samples.

Results

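The genes described here are 9 members of the fetal Lin28, Igf2bp and Hmga program: Lin28a, Lin28b, Trim71, Igf2bp1, Igf2bp2, Igf2bp3, Hmga1, Hmga2 and Arid3a. They were chosen by gene symbol, and all 9 were found among the 27968 genes of the sorted-cell table and among the 22899 genes of the coculture table. RNA-seq came from 21 libraries in 7 groups of 3. The study differentiated mouse embryonic stem cells (mESCs) into embryoid bodies in a 3D self-assembling peptide, and then cultured them on OP9 stromal cells or on 0.1% gelatin.

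The sorted-cell table held 15 libraries. The mESCs were 129/ola cells sorted on SSEA-1. D5-LSKCD201+ and D5-LSKCD201- cells were derived from 129/ola mESCs and sorted on day 5 of the OP9 coculture as Lineage-negative, Sca-1+ and c-kit+ (LSK) with or without CD201, a receptor that marks hematopoietic stem cells. FL-LSKCD201+ cells came from the fetal liver of mid-gestation C57BL/6 embryos, and BM-LSKCD201+ cells from the bone marrow of C57BL/6 mice aged 6 to 8 weeks. By the labels every in vitro group was therefore 129/ola and every in vivo group C57BL/6, so strain and origin cannot be told apart. The study's methods name mESCs of both strains without saying which gave these libraries. The coculture table held unsorted day 5 cells of 129/ola origin, grown as 3D+OP9 or as 3D+0.1% gelatin, where the OP9 cells had been treated with mitomycin C. Values were FPKM, fragment counts scaled for transcript length and for library size. The labels number 3 replicates per group without saying whether they are separate cultures or animals. The study writes of biological replicates for the sorted cells and of independent experiments in its legends, and a p measures only the spread between these libraries.

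LIN28A and LIN28B are RNA-binding proteins that block the maturation of the let-7 family of microRNAs, and let-7 in turn acts on messages that carry matches to its seed. Several let-7 targets belong to the same program: the mRNA-binding proteins of the Igf2bp family, the chromatin architectural protein HMGA2, the transcription factor ARID3A, the LIN28 proteins and TRIM71. In blood the program is known for separating fetal from adult stem and progenitor cells, with Lin28b as its switch. TRIM71 (LIN41) is an RNA-binding ubiquitin ligase of early embryonic cells.

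The let-7 sequences are shown because the members hold matches to them. Most members belong to the program as known let-7 targets, so their matches are a description of the group and no test of it. In RefSeq (GRCm38.p6), 9 mature let-7 names from 11 loci all carried 1 seed (bases 2 to 8, in capitals), of which 4 are printed here 5′ to 3′.
mmu-let-7a-5p: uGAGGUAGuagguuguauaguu
mmu-let-7c-5p: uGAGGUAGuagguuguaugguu
mmu-let-7g-5p: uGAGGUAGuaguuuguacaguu
mmu-miR-98-5p: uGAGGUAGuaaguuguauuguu

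The match to this seed is CTACCTC, searched on the transcript strand of the longest annotated 3′ UTR of each gene (GENCODE M21, GRCm38). All 9 members held at least 1 match, against 9.02% of 21022 protein-coding genes. Lin28b, Igf2bp1, Hmga2 and Trim71 held 4 matches each, a number reached or passed by 0.0571% of those genes. Lin28a and Arid3a held 2 each and Igf2bp2, Igf2bp3 and Hmga1 1 each. Long UTRs hold more matches: among genes with a UTR within 20% of the length, the share with at least 1 match ran from 8.08% for Hmga1 to 33.6% for Igf2bp1. At the length of the Hmga2 UTR (3014 bases), 0.134% of genes held 4 or more matches, and at that of Igf2bp2 (1784 bases) 12.1% held at least 1. A match is a description of letters, and mature let-7 was not measured in these mRNA libraries.

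The first match of each member, 5′ to 3′ on the transcript with the match in capitals, is printed with its position on GRCm38 so that the sites can be compared. All but that of Hmga1 were followed by an A.
Lin28a, chr4:134005189-134005210, minus strand: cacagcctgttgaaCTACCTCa
Lin28b, chr10:45381022-45381043, minus strand: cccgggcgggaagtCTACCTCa
Trim71, chr9:114512472-114512493, minus strand: acattgcctaagtcCTACCTCa
Igf2bp1, chr11:95961778-95961799, minus strand: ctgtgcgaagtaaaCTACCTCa
Igf2bp2, chr16:22059473-22059494, minus strand: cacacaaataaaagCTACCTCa
Igf2bp3, chr6:49086787-49086808, minus strand: gcatttttactcaaCTACCTCa
Hmga1, chr17:27563278-27563299, plus strand: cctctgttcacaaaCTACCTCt
Hmga2, chr10:120364224-120364245, minus strand: ccgacattcaatttCTACCTCa
Arid3a, chr10:79953896-79953917, plus strand: aggcaagtttctttCTACCTCa

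**Figure D1:**
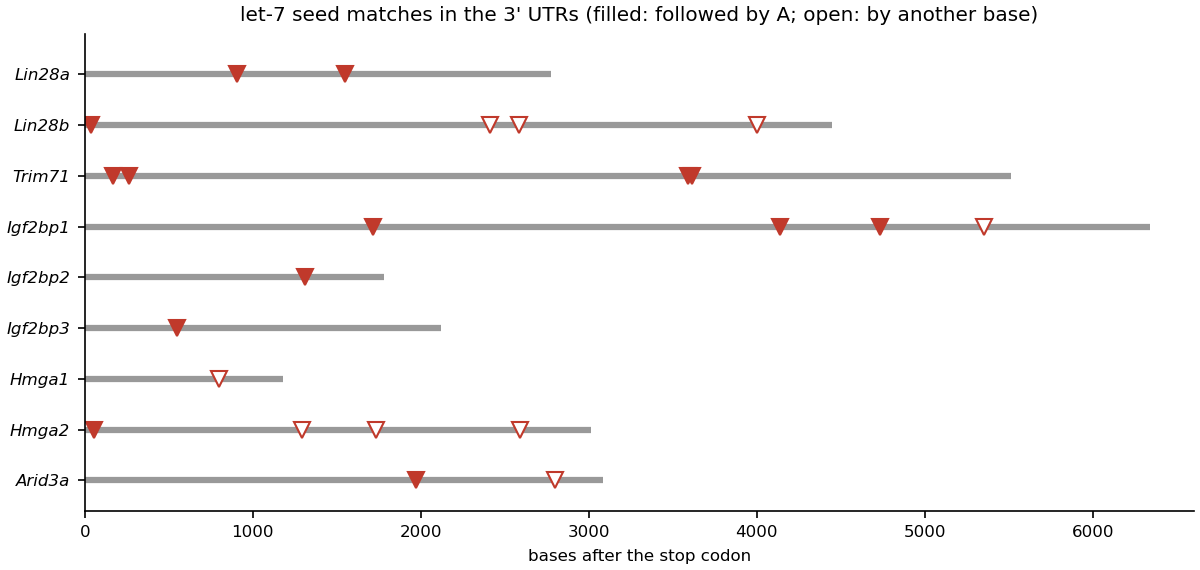
Positions of matches to the let-7 seed in the longest annotated 3′ UTR of each member, as bases after the stop codon on the horizontal axis. Grey lines span the UTR, filled triangles are matches followed by an A and open triangles the others. Trim71 holds 4 filled triangles, and Lin28b and Hmga2 each hold 1 within 60 bases of the stop codon and 3 open ones beyond.

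Before the members, the libraries themselves were checked. Summed FPKM over all genes was 5.086e+05 to 6.203e+05 in the sorted-cell libraries and 4.833e+05 to 5.083e+05 in the coculture libraries, and the number of reads behind them is unknown. The summed level of 8 pluripotency markers was 6302 to 6846 FPKM in mESCs and 3484 to 3913 in D5-LSKCD201- cells, against 22.7 to 30.4 in D5-LSKCD201+, 5.38 to 10.4 in FL-LSKCD201+ and 0.365 to 10.4 in BM-LSKCD201+. All 8 markers had a mean of at least 1 FPKM in D5-LSKCD201- cells. The 8 blood markers summed to 99.8 to 102 FPKM there, 414 to 416 in D5-LSKCD201+ cells and 1301 to 1987 in the in vivo groups. D5-LSKCD201- cells thus held the markers of mESCs beside a low level of blood markers. In D5-LSKCD201+ cells most of the blood sum came from Cd34 at a mean of 222.8 FPKM and from the sort genes Ly6a, Procr and Kit at 61.3, 59.7 and 44.5, against 191.3 for Cd34 and 40.6, 68.4 and 51.2 for the others in FL-LSKCD201+. The pan-blood gene Ptprc (CD45) had means of 0.409 FPKM with CD201 and 0.633 without, against 43.5 in fetal liver and 66.8 in bone marrow. Vav1 had means of 1.353 and 1.352 against 50.95 and 82.1, and Coro1a of 12.2 and 8.41 against 771.4 and 627, so these 3 markers were low in both day 5 sorts while Cd34 and Ly6a in D5-LSKCD201+ cells had means above those of fetal liver. The 6 endothelial markers summed to 1038 to 1067 FPKM in D5-LSKCD201+ cells and to no more than 166 in any other sorted library. The 7 hepatoblast and endoderm markers summed to 403 to 666 in FL-LSKCD201+ libraries and to no more than 48.2 elsewhere. In D5-LSKCD201- most of that sum was Foxa2 and Rbp4, at means of 17.9 and 18.9 FPKM. Afp and Alb averaged 0.494 and 0.0694 there, against 239.9 and 68.8 in FL-LSKCD201+.

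Within groups, D5-LSKCD201- replicate 2 stood apart. Its mean absolute difference from the other 2 replicates was 0.283 and 0.291 on the log2(FPKM + 1) scale, against 0.111 between those 2. It held the lowest value of its group for 9 of 9 members, with 115.7 FPKM of erythroid markers against 46.4 and 52.6, and 33.8 FPKM of stromal markers against 67.0 and 65.6. The share of all genes that were lowest in this library was not counted, so whether the members stand out is unknown. FL-LSKCD201+ replicate 1 (0.320 and 0.333 against 0.098), BM-LSKCD201+ replicate 1 (0.238 and 0.242 against 0.088) and 3D+OP9 replicate 3 (0.290 and 0.299 against 0.114) also stood apart. The part of these libraries in the results was tested only by leaving each out in turn and by averaging the close pair. In bulk RNA, fewer cells of a type and less RNA per cell cannot be told apart.

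**Figure D2:**
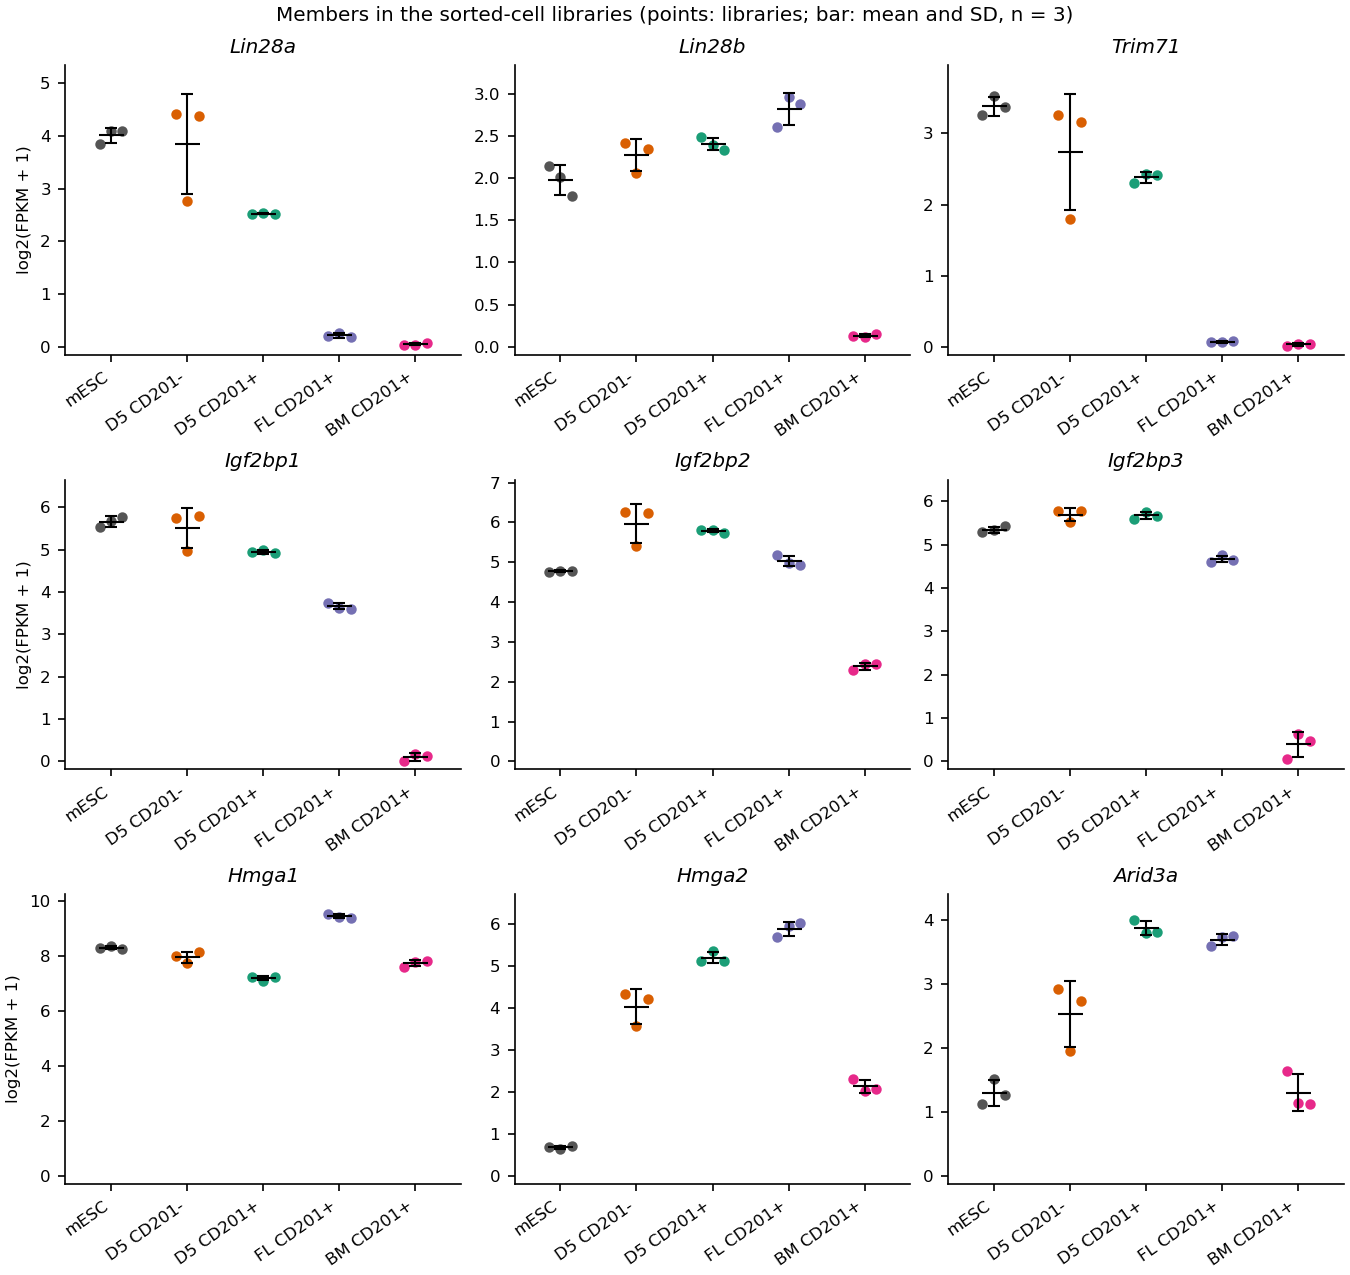
Levels of the 9 members in the 15 sorted-cell libraries, as log2(FPKM + 1) on the vertical axis of each panel. Points are libraries and black bars the mean and SD (n = 3). Lin28a and Trim71 lie near 0 in both in vivo groups, whereas Lin28b and the 3 Igf2bp genes lie far above BM-LSKCD201+ in FL-LSKCD201+ and in all in vitro groups.

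Changes were tested with limma on log2(FPKM + 1), adjusted by Benjamini-Hochberg over all genes tested, and a gene was called where the adjusted p was below 0.05 and the fold change reached 1 on the log2 scale in either direction. All fold changes below are on that scale, which understates the change of low genes.

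Fetal liver was first set against adult bone marrow. Of 7 members tested between FL-LSKCD201+ and BM-LSKCD201+ cells, 7 were called higher in fetal liver and 0 lower, where 7.78% of all 13503 genes tested were called higher and 11.3% lower. The median log2 fold change of the 7 was 2.68 against -0.13 over all genes. Lin28a and Trim71 were under the minimum of 0.5 FPKM in this pair and were not tested. Markers of other cells differed between the same groups: erythroid markers summed to 362 to 437.8 FPKM in fetal liver and 3.46 to 12.03 in bone marrow, myeloid markers to 1785 to 1890 and 416 to 438, and hepatoblast and endoderm markers to 403 to 666 and 6.16 to 9.78. Their part in the members' differences was not tested.

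Among the RNA-binding proteins that block let-7, Lin28b carried the fetal level. It lay at 5.10, 6.79 and 6.38 FPKM in FL-LSKCD201+ libraries and at 0.0943, 0.0821 and 0.113 in BM-LSKCD201+ libraries. The groups did not overlap, and the log2 fold change was 2.68 (SE 0.133, adjusted p = 7.926e-06, limma). In the in vitro groups Lin28b was at 4.60, 4.23 and 4.06 FPKM in D5-LSKCD201+, at 4.33, 3.16 and 4.09 in D5-LSKCD201- and at 3.42, 3.03 and 2.46 in mESCs. D5-LSKCD201+ and FL-LSKCD201+ did not overlap, yet the log2 fold change was -0.41 (SE 0.115, adjusted p = 0.01484), under the size for a call. The order was FL-LSKCD201+, D5-LSKCD201+, D5-LSKCD201-, mESC and BM-LSKCD201+, in which both day 5 groups overlapped each other and D5-LSKCD201- overlapped mESCs.

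Lin28a, the embryonic paralogue, had another order. It lay at 13.4, 16.0 and 16.1 FPKM in mESCs, at 4.75, 4.80 and 4.73 in D5-LSKCD201+ and at 20.3, 5.76 and 19.9 in D5-LSKCD201-. In FL-LSKCD201+ it was at 0.149, 0.204 and 0.137 FPKM and in BM-LSKCD201+ at 0.0240, 0.0249 and 0.0498. D5-LSKCD201+ cells thus held Lin28a at a level below every mESC library and above every in vivo library. The log2 fold change of D5-LSKCD201+ cells was 2.31 against FL-LSKCD201+ (SE 0.0768, adjusted p = 5.005e-07) and -1.48 against mESCs (SE 0.0785, adjusted p = 1.341e-07). As a share of Lin28a and Lin28b together, Lin28b made up 16.5% of the FPKM in mESCs (13.3 to 20.3%), 23.4% in D5-LSKCD201- (17.05 to 35.4%) and 47.4% in D5-LSKCD201+ (46.2 to 49.2%). In vivo it made up 97.4% in FL-LSKCD201+ (97.1 to 97.9%) and 75.3% in BM-LSKCD201+ (69.3 to 79.7%), where both genes were near 0.

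Trim71, the ubiquitin ligase, followed Lin28a. It lay at 8.55, 10.5 and 9.32 FPKM in mESCs, at 3.92, 4.36 and 4.36 in D5-LSKCD201+ and at 8.62, 2.47 and 7.91 in D5-LSKCD201-. In FL-LSKCD201+ it was 0.0464, 0.0467 and 0.0608 and in BM-LSKCD201+ 0.0113, 0.0292 and 0.0290. All in vivo libraries were thus under 0.1 FPKM and all in vitro libraries above 2. The log2 fold change of D5-LSKCD201+ cells was 2.31 against FL-LSKCD201+ (SE 0.0806, adjusted p = 6.158e-07) and -0.9998 against mESCs (SE 0.0850, adjusted p = 3.668e-06), the latter just short of the size for a call. It reached that size without mESC replicate 1 (-1.06) or 3 (-1.01) and without D5-LSKCD201+ replicate 2 or 3 (-1.02 each), and also with a pseudocount of 0.1 (-1.14), quantile normalization (-1.13) or libraries scaled to equal sums (-1.04).

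Among the Igf2bp genes, whose products bind and stabilise mRNAs, Igf2bp1 was the lowest in bone marrow. It lay at 0, 0.124 and 0.0931 FPKM in BM-LSKCD201+, at 12.4, 11.4 and 11.2 in FL-LSKCD201+ and at 29.7, 30.7 and 29.2 in D5-LSKCD201+. In mESCs it was at 45.1, 50.4 and 54.1 and in D5-LSKCD201- at 52.9, 30.3 and 54.9. The fetal-liver libraries lay between bone marrow and every in vitro library. The log2 fold change was 3.56 for FL-LSKCD201+ against BM-LSKCD201+ (SE 0.115, adjusted p = 1.446e-06) and 1.28 for D5-LSKCD201+ against FL-LSKCD201+ (SE 0.0711, adjusted p = 5.249e-06).

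Igf2bp3 lay at 0.0460, 0.558 and 0.380 FPKM in BM-LSKCD201+, at 23.5, 26.0 and 24.0 in FL-LSKCD201+ and at 47.7, 53.0 and 50.0 in D5-LSKCD201+. It was at 53.9, 45.0 and 54.2 in D5-LSKCD201- and at 38.1, 39.4 and 42.0 in mESCs. D5-LSKCD201+ and D5-LSKCD201- overlapped, while FL-LSKCD201+ lay below both and far above bone marrow. Between FL-LSKCD201+ and BM-LSKCD201+ the log2 fold change was 4.28 (SE 0.164, adjusted p = 2.827e-06). D5-LSKCD201+ against FL-LSKCD201+ gave 1.01 (SE 0.0754, adjusted p = 2.348e-05), a call that fell short of the size at 0.98 without FL-LSKCD201+ replicate 1, at 0.99 without FL-LSKCD201+ replicate 3 and at 0.97 without D5-LSKCD201+ replicate 2.

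Igf2bp2 was the one family member still above 3 FPKM in every adult library, at 3.88, 4.40 and 4.44 in BM-LSKCD201+. It was at 35.1, 30.7 and 29.7 in FL-LSKCD201+, at 25.9, 26.5 and 26.7 in mESCs and at 55.3, 55.2 and 52.6 in D5-LSKCD201+. In D5-LSKCD201- it was at 75.8, 41.3 and 75.0. Its highest levels were therefore in both day 5 groups, which overlapped each other through D5-LSKCD201- replicate 2 alone. D5-LSKCD201+ against D5-LSKCD201- gave -0.18 (adjusted p = 0.4952, limma), and -0.47 (adjusted p = 2.626e-05) without that replicate, neither called. The log2 fold change of D5-LSKCD201+ was 1.02 against mESCs (SE 0.0401, adjusted p = 1.841e-08; 0.98 and not called after quantile normalization) and 0.76 against FL-LSKCD201+ (SE 0.0825, adjusted p = 0.0001590), the latter not called. FL-LSKCD201+ against BM-LSKCD201+ gave 2.64 (SE 0.108, adjusted p = 3.504e-06).

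Hmga2, which bends DNA at AT-rich sites, had the largest fold change of the members in D5-LSKCD201+ against mESCs. It lay at 0.619, 0.556 and 0.631 FPKM in mESCs, at 19.1, 10.8 and 17.4 in D5-LSKCD201- and at 33.7, 39.5 and 33.8 in D5-LSKCD201+. In FL-LSKCD201+ it was at 50.2, 60.3 and 63.6 and in BM-LSKCD201+ at 3.94, 3.06 and 3.17. None of the 5 groups overlapped another. The log2 fold change was 4.51 for D5-LSKCD201+ against mESCs (SE 0.0796, adjusted p = 1.271e-10), 3.75 for FL-LSKCD201+ against BM-LSKCD201+ (SE 0.130, adjusted p = 1.876e-06) and -0.68 for D5-LSKCD201+ against FL-LSKCD201+ (SE 0.114, adjusted p = 0.001357), the last not called.

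Arid3a, a DNA-binding factor of early B and progenitor cells, had its highest levels in D5-LSKCD201+ at 14.99, 12.9 and 13.01 FPKM and in FL-LSKCD201+ at 11.01, 12.3 and 12.4. It was at 6.56, 2.85 and 5.63 in D5-LSKCD201-, at 2.11, 1.21 and 1.17 in BM-LSKCD201+ and at 1.17, 1.86 and 1.39 in mESCs. Bone marrow overlapped mESCs. D5-LSKCD201+ lay above FL-LSKCD201+ in all libraries, by 0.18 on the log2 scale (SE 0.0912, adjusted p = 0.1200) that missed the test. FL-LSKCD201+ against BM-LSKCD201+ gave 2.39 (SE 0.165, adjusted p = 3.174e-05).

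Hmga1, the relative of Hmga2 that is common in dividing cells, was the most abundant member in each group of both tables, as FPKM is per length. It lay at 310.0, 333.0 and 305.2 FPKM in mESCs, at 151.1, 136.7 and 148.5 in D5-LSKCD201+ and at 254.1, 212.8 and 281.0 in D5-LSKCD201-. In FL-LSKCD201+ it was at 747.8, 689.4 and 675.2 and in BM-LSKCD201+ at 195.4, 220.7 and 224.6. As listed, D5-LSKCD201+ against FL-LSKCD201+ gave -2.27 on the log2 scale (SE 0.0828, adjusted p = 7.695e-07), and the log2 fold change was 1.72 for FL-LSKCD201+ against BM-LSKCD201+ (SE 0.107, adjusted p = 2.039e-05).

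Reads of Hmga1 can also match related sequences in the genome, and how such reads were assigned is not given in the sources used here, so its values are taken as uncertain. Whether such reads affected its values was not tested. The mESC and day 5 groups are 129/ola and the fetal liver and bone marrow groups C57BL/6, so Hmga1 is left out of counts of members between those groups. No other gene was left out for this reason, and Hmga1 as listed lay lower in D5-LSKCD201+ than in both in vivo groups. Counted as listed it would add 1 lower call for each day 5 sort against FL-LSKCD201+ and 1 higher call in FL-LSKCD201+ against mESCs. Hmga1 stays in the count of FL-LSKCD201+ against BM-LSKCD201+, where without it 6 of 6 members tested were called higher. Within C57BL/6, FL-LSKCD201+ lay above BM-LSKCD201+ without overlap, and within 129/ola, D5-LSKCD201+ lay below mESCs and D5-LSKCD201- without overlap.

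How the day 5 cells compare with their source and with cells of the body was then read over the members, all 9 against mESCs and without Hmga1 against the in vivo groups. Against mESCs, 3 members were called higher in D5-LSKCD201+ (Hmga2, Arid3a and Igf2bp2) and 2 lower (Lin28a and Hmga1), where 19.5% of all genes were called higher and 18.1% lower. Against mESCs, D5-LSKCD201- had the same 3 higher and 0 lower (10.9% and 3.48% of all genes, the higher ones being 75.7% of calls and 59.8% after quantile normalization). The log2 fold change in D5-LSKCD201- was 3.35 for Hmga2 (SE 0.198, adjusted p = 1.139e-05), 1.23 for Arid3a (SE 0.255, adjusted p = 0.005053; 0.99 and not called after quantile normalization) and 1.20 for Igf2bp2 (SE 0.219, adjusted p = 0.002846). These comparisons share the mESC libraries. Pluripotency markers summed to 6302 to 6846 FPKM in mESCs, 22.7 to 30.4 in D5-LSKCD201+ and 3484 to 3913 in D5-LSKCD201-. Endothelial markers summed to 18.3 to 19.2, 1038 to 1067 and 54.5 to 58.3 in the same order. The part of these markers in the calls was not tested.

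Against BM-LSKCD201+, leaving out Hmga1, which is taken as uncertain between the strains, 8 of 8 members were called higher in D5-LSKCD201+ and 0 lower (17.5% and 27.2% of all genes, the higher ones being 39.1% of calls and 49.0% after quantile normalization). The log2 fold changes of these 8 ran from 2.27 for Lin28b to 5.29 for Igf2bp3. Hmga1 as listed lay the other way, at -0.55 (SE 0.0688, adjusted p = 0.0001647), short of the size for a call. Against the same BM-LSKCD201+ libraries, D5-LSKCD201- cells had 8 higher and 0 lower (23.0% and 26.3% of all genes). mESCs lay above BM-LSKCD201+ for 6 members, which were called lower in bone marrow (22.4% of all genes), while Hmga2 alone was called higher in bone marrow (30.7% of all genes), by 1.45 on the log2 scale (SE 0.102, adjusted p = 4.028e-06).

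Against FL-LSKCD201+, again without Hmga1, 4 of the other 8 members were called higher in D5-LSKCD201+ (Lin28a, Trim71, Igf2bp1 and Igf2bp3) and 0 lower, where 15.1% of all genes were called higher and 19.6% lower. The median log2 fold change of these 8 was 0.88 against -0.16 over all genes. Hmga1 as listed lay the other way and would be called lower, at -2.27 (SE 0.0828). In D5-LSKCD201-, compared with the same FL-LSKCD201+ libraries, Lin28a, Trim71, Igf2bp1 and Igf2bp3 were called higher and 2 members lower (Hmga2 and Arid3a), against 18.6% and 18.7% of all genes. Hmga2 gave -1.85 there (SE 0.212, adjusted p = 0.0001838) and Arid3a -1.16 (SE 0.248, adjusted p = 0.004552), the call of Arid3a being lost at -0.87 without D5-LSKCD201- replicate 2. Igf2bp3 gave 1.03 there and fell short of the size without FL-LSKCD201+ replicate 1 or D5-LSKCD201- replicate 1 or 3 (0.98 for each of the last 2), and with close pairs averaged. Igf2bp2 gave 0.94 and reached the size without FL-LSKCD201+ replicate 1 (1.01) or D5-LSKCD201- replicate 2 (1.22) and with libraries scaled to equal sums (1.03). The pluripotency markers of D5-LSKCD201- cells and the endothelial markers of D5-LSKCD201+ cells, given above, also differed from both in vivo groups. Myeloid markers summed to 6.67 to 7.36 FPKM in D5-LSKCD201+ and 8.44 to 8.95 in D5-LSKCD201-, against 1785 to 1890 in FL-LSKCD201+. In the same order, erythroid markers summed to 30.7 to 50.1, 46.4 to 115.7 and 362 to 437.8. Hepatoblast and endoderm markers summed to 4.74 to 5.99, 40.05 to 48.2 (mostly Foxa2 and Rbp4) and 403 to 666. The part of these markers in the members' differences was not tested. FL-LSKCD201+ against mESCs had 2 of these 8 higher (Hmga2 and Arid3a) and 3 lower (Lin28a, Trim71 and Igf2bp1), against 24.2% and 18.1% of all genes. Lin28b gave 0.84 there (adjusted p = 0.0009901) and reached the size with a pseudocount of 0.1 (1.01).

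The 2 sorts of day 5 cells were 1 strain and came from 1 kind of coculture. Of 9 members, 2 were called higher in D5-LSKCD201+ and 1 lower than in D5-LSKCD201-, where 10.8% of all genes were called higher and 13.9% lower. Arid3a gave 1.34 (SE 0.243, adjusted p = 0.002100) and Hmga2 1.16 (SE 0.197, adjusted p = 0.001492), and neither overlapped between the groups. Lin28a gave -1.33 (SE 0.422, adjusted p = 0.02614). Without D5-LSKCD201- replicate 2, Lin28a gave -1.87 (adjusted p = 1.860e-07), whereas Hmga2 fell short of the size at 0.93 (adjusted p = 3.156e-05) and Arid3a kept 1.04. Without any one of the other 5 libraries the Lin28a call was lost at -1.05 to -1.33 with an adjusted p of 0.06751 to 0.08353. It was also lost with the close pair averaged (-1.05, adjusted p = 0.07934) and with no filter on low values (-1.33, adjusted p = 0.05289). The pluripotency markers named above, 22.7 to 30.4 FPKM in one group and 3484 to 3913 in the other, moved with this comparison. So did the endothelial markers (1038 to 1067 against 54.5 to 58.3) and 3 germ cell markers (0.656 to 0.722 against 80.3 to 83.2). Most of the germ cell sum in D5-LSKCD201- was Dppa3, at a mean of 69.9 FPKM. Dazl averaged 6.41 there and 1.23 in mESCs. Ddx4 averaged 5.26 there, below its 10.1 in mESCs, 23.1 in FL-LSKCD201+ and 15.8 in BM-LSKCD201+. The part of the pluripotency, endothelial and germ cell markers in the Lin28a, Hmga2 and Arid3a differences was not tested.

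**Figure D3:**
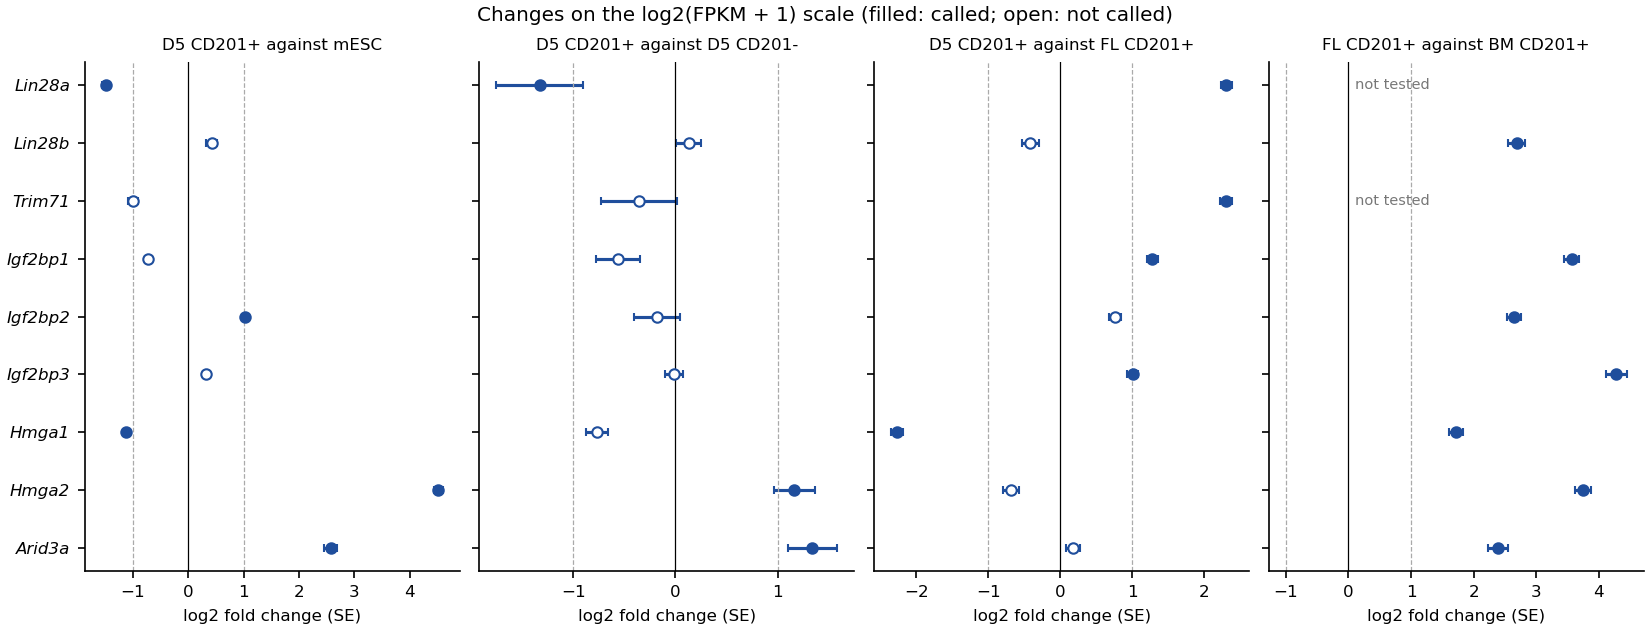
Log2 fold changes of the members (horizontal axis, log2(FPKM + 1) scale, bars are SE, 3 libraries per group) in 4 comparisons, each the first group minus the second. Filled points were called and open points were not, and dashed lines mark an absolute change of 1. Lin28a, Trim71 and Igf2bp1 lie right of 1 in D5-LSKCD201+ against FL-LSKCD201+, where Hmga1 is drawn as listed, while all 7 points of FL-LSKCD201+ against BM-LSKCD201+ lie right of 1.

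Whether the stromal layer moves the program was asked in total cells on day 5. In 3D+OP9 against 3D+0.1% gelatin, limma called 0 of 9 members higher and 0 lower, where 2.11% of all 12958 genes were called higher and 0.509% lower. Under an adjusted p of 0.05 without the fold-change size were 2 members (6.88% of all genes), and 6 had an unadjusted p under 0.05 (22.9% of all genes). No other tool was run on these FPKM values.

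Igf2bp2 lay at 69.7, 62.6 and 60.2 FPKM in 3D+OP9 and at 40.1, 27.7 and 36.6 in 3D+0.1% gelatin, differing by 0.88 on the log2 scale (SE 0.137, adjusted p = 0.01098). Hmga2 lay at 121.9, 118.8 and 88.3 in 3D+OP9 and at 68.7, 64.0 and 68.4 in 3D+0.1% gelatin, differing by 0.69 on the log2 scale (SE 0.125, adjusted p = 0.01952). Neither gene overlapped between the groups. Arid3a, at 13.0, 14.3 and 9.86 against 7.79, 7.46 and 8.96, did not overlap either but missed the test with 0.55 (SE 0.147, adjusted p = 0.07274).

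The Lin28 genes and both other Igf2bp genes had lower means on OP9, and none passed the test. Lin28a, Igf2bp1 and Igf2bp3 were lower in every OP9 library, without overlap between the groups. Lin28a was at 167.6, 159.5 and 151.6 FPKM in 3D+OP9 and at 179.9, 178.6 and 198.1 in 3D+0.1% gelatin (log2 fold change -0.22, SE 0.0732, adjusted p = 0.1333). Igf2bp1 was at 67.1, 65.2 and 59.1 against 73.4, 84.1 and 77.9 (-0.29, SE 0.0824, adjusted p = 0.08305), and Igf2bp3 at 48.7, 46.6 and 44.6 against 51.9, 62.0 and 59.97 (-0.30, SE 0.0876, adjusted p = 0.09019). Lin28b (14.5, 14.98 and 13.4 against 14.0, 18.7 and 17.6), Trim71 (10.3, 10.5 and 9.01 against 6.55, 9.18 and 8.47) and Hmga1 (286.7, 271.6 and 279.3 against 293.9, 281.3 and 284.6) overlapped between the groups. Library 3D+OP9 replicate 3, which held the lowest value of its group for 8 of 9 members, had 1361 FPKM of pluripotency markers against 797 and 790, and 695.6 of erythroid markers against 187.5 and 369.9. How many of all genes were lowest in that library was not counted. Stromal markers summed to 51.2 to 62.9 FPKM in 3D+OP9 and 23.3 to 33.4 in 3D+0.1% gelatin, endothelial markers to 75.6 to 90.1 and 9.45 to 20.2, and erythroid markers to 187.5 to 695.6 and 4.31 to 18.4. Blood markers summed to 32.5 to 41.2 and 12.7 to 15.5, and pluripotency markers to 790 to 1361 and 1169 to 1265. The pluripotency markers went both ways, with mean Nanog lower in 3D+OP9 (73.3 against 149.2) and mean Esrrb higher (33.1 against 2.08). The part of OP9 RNA and of these cell types in the values was not tested. Levels here cannot be set beside those of the sorted cells, because the tables were normalized separately.

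**Figure D4:**
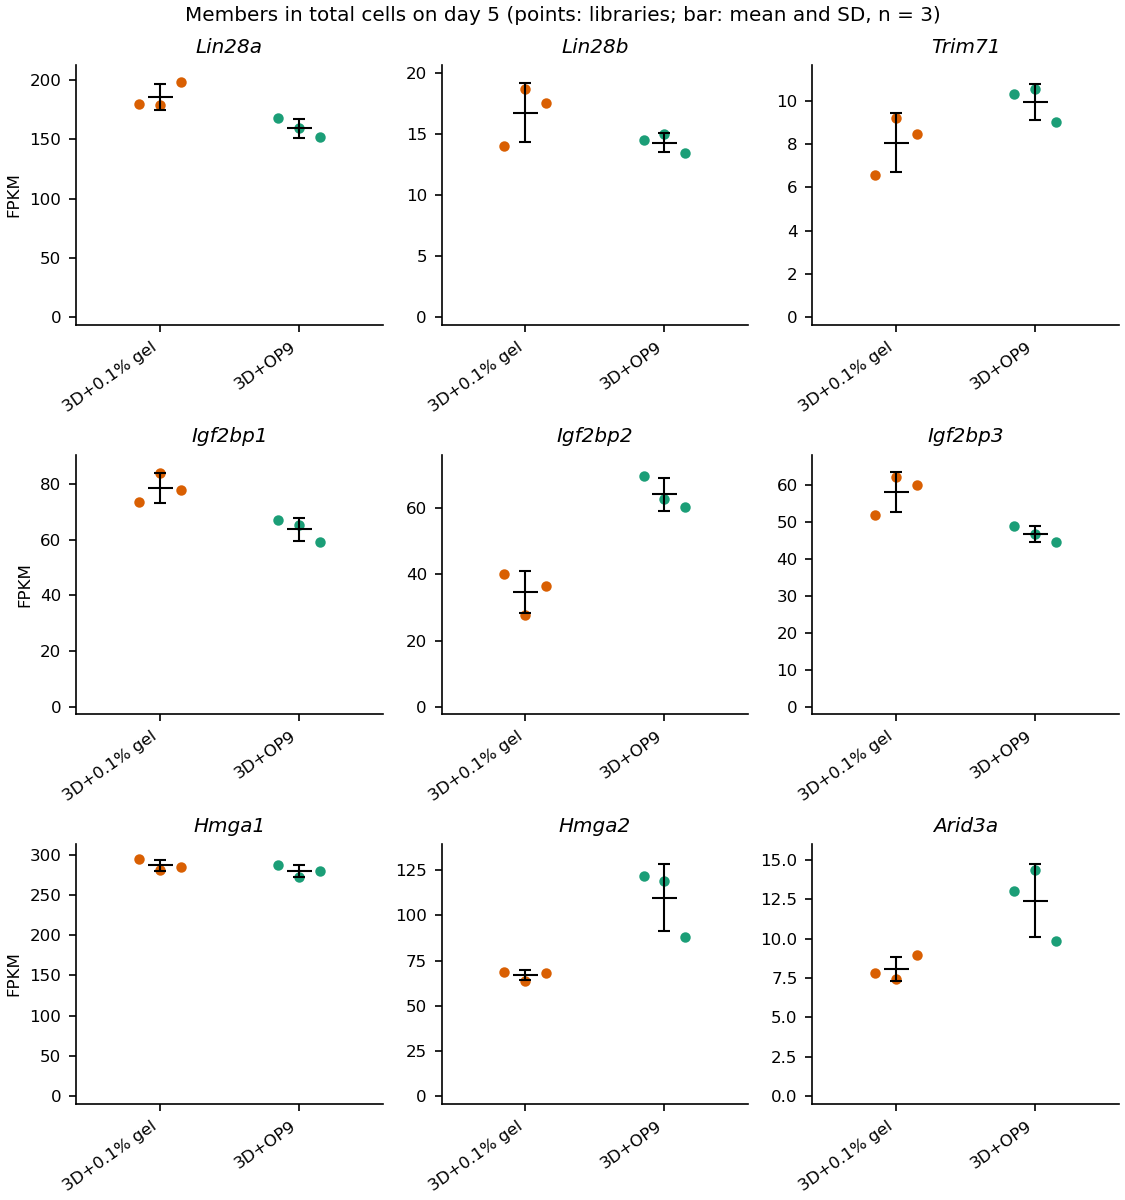
FPKM of the 9 members in total cells on day 5 of culture on 0.1% gelatin (left in each panel) and on OP9 stromal cells (right). Points are libraries and black bars the mean and SD (n = 3). Igf2bp2 and Hmga2 are higher on OP9 in all libraries without reaching a log2 fold change of 1, and Hmga1 overlaps.

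Other genes of the pathway were read from lists chosen with earlier results known. The cell-type markers given above also differed between the groups compared here, and their part in the changes of these lists was not tested. Of 19 genes of let-7 processing, 18 were tested in D5-LSKCD201+ against FL-LSKCD201+, of which 5 were called lower and 0 higher (19.6% and 15.1% of all genes). Ago1, an Argonaute that carries microRNAs, gave -1.50 (SE 0.120, adjusted p = 3.377e-05), the RNA helicase Ddx17 -1.47 (SE 0.146, adjusted p = 0.0001011) and Khsrp, a promoter of let-7 maturation, -1.41 (SE 0.0869, adjusted p = 9.085e-06). Against D5-LSKCD201-, 2 of 18 were higher and 0 lower (10.8% and 13.9% of all genes), namely Tut7, a uridylyl transferase of precursor let-7, at 1.17 (SE 0.115) and Prkra, a partner of Dicer, at 1.04 (SE 0.119). In FL-LSKCD201+ against BM-LSKCD201+ 1 of 19 was called lower and 0 higher (11.3% and 7.78% of all genes), Tut4, also a uridylyl transferase of precursor let-7, at -1.07 (SE 0.224, adjusted p = 0.005428). In the coculture 0 of 18 were called (2.11% of all genes higher and 0.509% lower).

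Of 25 genes reported as let-7 targets outside the program, 15 held a seed match. In D5-LSKCD201+ against FL-LSKCD201+ 1 of 23 was called higher and 9 lower (15.1% and 19.6% of all genes), with a median log2 fold change of -0.82 against -0.16 over all genes. The cell-cycle kinase Cdk6 gave -2.51 (SE 0.175), the cyclin Ccnd2 -2.21 (SE 0.115) and the oncogene Mycn -1.84 (SE 0.173), and Arid3b, the relative of Arid3a, gave 1.71 (SE 0.107). In FL-LSKCD201+ against BM-LSKCD201+ 6 of 22 were higher (7.78% of all genes), led by Cdc34 at 1.82 (SE 0.153), Ccnd1 at 1.63 (SE 0.165) and Insr at 1.39 (SE 0.133), and 2 lower (11.3% of all genes), Irs2 at -2.09 (SE 0.104) and Ccnd2 at -1.02 (SE 0.0993). Against D5-LSKCD201- 2 of 23 were higher (Myc among them; 10.8% of all genes) and 5 lower (13.9%), led by Mycn at -2.27 (SE 0.101). In the coculture 1 of 25 was called higher (2.11% of all genes), the integrin Itgb3 at 1.97 (SE 0.126, adjusted p = 0.0006232).

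Of 10 fetal growth and fetal stem cell genes, many of them imprinted, 6 were called higher in D5-LSKCD201+ and 1 higher in FL-LSKCD201+ (15.1% and 19.6% of all genes). The imprinted genes Mest at 8.72 (SE 0.236), Peg3 at 5.75 (SE 0.0747) and Igf2, the growth factor whose mRNA the Igf2bp proteins are named for, at 5.25 (SE 0.124) led, and H19 gave -2.65 (SE 0.247). Igf2 averaged 1676 FPKM in D5-LSKCD201+, 113.6 in D5-LSKCD201- and 43.3 in FL-LSKCD201+. In FL-LSKCD201+ against BM-LSKCD201+ 7 of 9 were higher and 0 lower (7.78% and 11.3% of all genes), led by H19 at 5.03 (SE 0.274), Dlk1 at 4.10 (SE 0.248) and Igf2 at 4.05 (SE 0.282). Hepatoblast and endoderm markers summed to 403 to 666 FPKM and 6.16 to 9.78 in the same groups, and their part in these calls was not tested. Between the day 5 sorts 6 of 10 were higher in D5-LSKCD201+ (10.8% of all genes) and 1 lower (13.9%), Gpc3 at -4.59 (SE 0.101). On OP9 3 of 9 were higher than on gelatin and 0 lower (2.11% and 0.509% of all genes), namely Igf2 at 2.08 (SE 0.346, adjusted p = 0.01431), Dlk1 at 1.297 (SE 0.204, adjusted p = 0.01098) and Mest at 1.10 (SE 0.119, adjusted p = 0.002966).

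Of 14 relatives of the members, 11 were tested in D5-LSKCD201+ against FL-LSKCD201+, of which 2 were called higher and 3 lower, near the 15.1% and 19.6% of all genes. The HMG proteins Hmgn2 at -3.04 (SE 0.139) and Hmgb1 at -1.96 (SE 0.192) were lower, and Trim3, a relative of Trim71, gave 1.83 (SE 0.157). Between FL-LSKCD201+ and BM-LSKCD201+ 2 of 11 were higher, Hmgb2 at 1.18 (SE 0.235) and Ybx3 at 1.07 (SE 0.129), and 0 lower (7.78% and 11.3% of all genes). Between the day 5 sorts 1 of 13 was higher and 3 lower (10.8% and 13.9% of all genes), and 0 of 14 were called in the coculture (2.11% of all genes higher and 0.509% lower).

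Of the transcripts in the sorted-cell table that span let-7 or miR-98 hairpins, 6 were found, and Mir99ahg and Huwe1 were also on the list of 5 hosts chosen by symbol. Mir99ahg, which spans let-7c-1, averaged 0.0796 FPKM in mESCs, 0.205 in D5-LSKCD201-, 1.24 in D5-LSKCD201+, 4.30 in FL-LSKCD201+ and 4.88 in BM-LSKCD201+. It was called lower in D5-LSKCD201+ than in FL-LSKCD201+ with -1.25 (SE 0.143, adjusted p = 0.0002014) and was not called between FL-LSKCD201+ and BM-LSKCD201+. Huwe1, the host of let-7f-2 and miR-98, averaged 5.68, 5.59, 3.72, 8.03 and 6.37 FPKM in the same order of groups. 6720427I07Rik, over let-7a-1, let-7d and let-7f-1, averaged 0.174, 0.372, 0.163, 0.997 and 2.53 FPKM, its fetal-liver and bone marrow libraries not overlapping. Spaca6 (let-7e) averaged 0.218, 0.255, 0.188, 0.728 and 1.237 FPKM, and Wdr82 (let-7g) 6.19, 6.32, 4.34, 9.87 and 10.5. 3110039I08Rik (let-7a-2) averaged 0.0808, 0.411, 0.311, 0.00337 and 0.0624 FPKM, all under the 0.5 FPKM minimum of the tests. Its means were higher in the day 5 sorts than in vivo, a difference that was not tested. A host transcript is not a measure of mature let-7.

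The genes with the most similar pattern were found as the smallest mean absolute difference over the 15 sorted-cell libraries, each gene centred on its own mean log2(FPKM + 1). All points of a group share its cells and strain, so this is a description. Lin28a was closest to Wasf1 (0.202), Gjc1 (0.236) and Hspb8 (0.287), and Trim71 to Pcsk1n (0.203). Among the members, Lin28a and Trim71 were the closest pair (0.369), followed by Igf2bp1 and Igf2bp3 (0.427). Lin28b was closest to Cdkn3 (0.258), a cell-cycle phosphatase, and lay further from Lin28a (1.276) than from Igf2bp2 (0.556). Igf2bp1 was closest to the mitotic genes Kif2c (0.291) and Plk1 (0.306), and Igf2bp3 to Ube2c (0.364), also mitotic. Next in rank came Taco1 (0.274) for Lin28b and Cnn3 (0.417) for Igf2bp3. Igf2bp2 was closest to Fam64a (0.285) and Grb10 (0.315), and Hmga1 to Spire1 (0.122). Whether cell-cycle genes are more common among these neighbours was not tested. Hmga2 had no close neighbour, with Add2 at 0.571, and Arid3a was closest to Slit2 (0.351) and Fabp5 (0.369).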

How the data were processed

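Per the study's methods, TRIzol RNA went into VAHTS mRNA-seq libraries, HISAT2 2.0.5 aligned the reads to GRCm38, StringTie 1.3.3 quantified them and Cuffdiff 1.3.0 compared groups (versions from the submitters' processing notes). The authors deposited FPKM per gene and library in 2 tables that were normalized separately, so tests stayed within a table. FPKM keeps no read number, so depth is unknown and no counting interval is given. Of 22899 genes for the coculture, 3578 were blank in all libraries and were left out.

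Pairs of groups, 11 in all, were compared with limma's trend fit (version 3.58.1, R 4.3.3, two-sided) on log2(FPKM + 1), for genes averaging 0.5 FPKM or more in the compared libraries. The fits were tested on simulated data. Figures were drawn with matplotlib 3.10.9. The named genes are the 9 members, up to 3 called genes per list and direction in 4 comparisons, and up to 3 genes per member closest in pattern. Members and lists were chosen with earlier results of these data known. The alternatives tried were another pseudocount, filter, normalization, prior, threshold or fit, a replicate block, leaving out each library and averaging close replicates. Results that rest on items withheld from this text are not reported here.

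Replicate numbers were tested for pairing by the correlation of deviations of same-numbered libraries. Only in FL-LSKCD201+ against BM-LSKCD201+ were all 3 over 0.1 (0.242, 0.202 and 0.159). There FL-LSKCD201+ replicates 2 and 3 correlated more with a differently numbered BM-LSKCD201+ library, so the values show no pairing by number. In D5-LSKCD201- against BM-LSKCD201+ every same-numbered correlation was the highest, yet low (0.121, 0.037 and 0.063). The labels give no pairing, and the animals of fetal liver and bone marrow differ.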

Additional observations from a re-analysis of the deposited data

How the results depend on the processing

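With Hmga1 included, the number of members called moved by over 1.5 times in none of 97 values (each of 11 comparisons under up to 9 settings other than the threshold), nor in 66 fits that left out 1 library, where it stayed at 5 to 6 for D5-LSKCD201+ against mESCs, 4 to 5 against FL-LSKCD201+ and 2 against D5-LSKCD201- (3 with all libraries). With the adjusted p alone, members called were 9 for D5-LSKCD201+ against mESCs (85.5% of all genes), 5 for D5-LSKCD201- against mESCs (54.6%), 5 between the day 5 sorts (68.3%), 8 for D5-LSKCD201+ against FL-LSKCD201+ (72.1%) and 2 for 3D+OP9 against 3D+0.1% gelatin (6.88%). Over all genes, the adjusted p alone called 1.62 to 3.81 times as many genes, and 3D+OP9 against 3D+0.1% gelatin went from 339 genes called to 531 with a pseudocount of 0.1. Quantile normalization moved the median change of all genes most in BM-LSKCD201+ against mESCs, from 0.23 to -0.06, and in D5-LSKCD201+ against BM-LSKCD201+, from -0.23 to -0.02. The replicate block changed no call: FL-LSKCD201+ against BM-LSKCD201+ kept 7 members called, and Lin28a between the day 5 sorts gave -1.33 with the block. Of 855 values of single members under the other settings, 840 kept direction and call. Those that changed direction were small with all libraries: Igf2bp3 between the day 5 sorts gave 0.07 with libraries scaled to equal sums, 0.03 with close replicates averaged and -0.10 to 0.03 with a library left out. Arid3a in BM-LSKCD201+ against mESCs gave -0.00 with a pseudocount of 0.1, -0.37 with quantile normalization, -0.11 scaled to equal sums and -0.17 to 0.11 with a library left out. In D5-LSKCD201- against mESCs, leaving out a library gave -0.44 to 0.39 for Lin28a and -0.30 to 0.11 for Igf2bp1, the upper ends without D5-LSKCD201- replicate 2. Causes were not tested. Unknown depth limits the lowest values, such as Trim71 in vivo.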
